A study of Mus musculus with 30 samples.

Results

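The genes described here are the mouse potassium channel genes, chosen as every gene whose symbol begins with Kcn. Antisense or overlapping transcripts named after such a gene (4 symbols ending in os or ot) were left out. There were 91 members among the 36103 genes counted. By role, 30 encode pore-forming subunits of voltage-gated channels, 9 encode silent voltage-gated subunits, 15 encode inward rectifiers, 12 encode two-pore-domain leak channels, 8 encode calcium- or sodium-activated channels, and 17 encode accessory or regulatory subunits. RNA was sequenced from gastrocnemius (a fast hindlimb muscle), diaphragm, whole heart and liver of Mtm1-/y male mice, a constitutive knock-out line that models X-linked myotubular myopathy, and of their wild-type (WT) male littermates. All mice were on a 129Pas background and 5 weeks old. The WT and Mtm1-/y groups held 4 and 4 libraries in gastrocnemius, 4 and 3 in diaphragm, 4 and 4 in heart, and 3 and 4 in liver. The labels do not tie libraries of different tissues to the same mouse.

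Potassium channels set the resting potential of a cell and end its action potentials. In skeletal muscle, inward rectifiers hold the membrane near the potassium equilibrium and ATP-sensitive channels tie it to the energy state, while voltage-gated channels repolarize the fibre and calcium-activated channels follow its calcium. In heart, a partly different set of subunits shapes the long cardiac action potential. Silent voltage-gated subunits carry no current alone and change the channels they join. Accessory subunits alter gating and trafficking of a pore. MTM1, the phosphoinositide phosphatase that is lost in this model, is not a channel.

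Total counts per library ran from 24873817 to 44289343. The targeted gene, Mtm1, did not overlap between the genotypes in any tissue and stood, in Mtm1-/y, at 23.9% of the WT level in gastrocnemius, 20.9% in diaphragm, 16.6% in heart and 33.1% in liver, so no library went against its label. Defining markers of skeletal muscle, cardiomyocytes and hepatocytes were high in their own tissues. The diaphragm libraries also held hepatocyte markers (6 genes, albumin among them), with summed levels of 35328, 23157, 446 and 25967 CPM (counts scaled to a common library total) in the 4 WT libraries and 2689, 44826 and 764 in the 3 Mtm1-/y libraries. Atrial markers varied between heart libraries, with sums of 3766, 770, 4232 and 30975 CPM in WT and 159, 5893, 635 and 176 in Mtm1-/y. In a piece of tissue, fewer cells of a type and less RNA per cell cannot be told apart. The p-values measure the spread between the libraries of a group, each taken as 1 mouse.

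Each tissue had its own leading members. In WT gastrocnemius, on the scale of CPM per kilobase of exon, which allows levels of different genes to be compared, the highest members were Kcnj11, the pore of the ATP-sensitive channel (39.3 ± 6.27, SD, n = 4), Kcnc4, a fast-inactivating voltage-gated pore (36.3 ± 5.32), and Kcna7, a Shaker-type pore (32.4 ± 4.79). Next came the silent subunit Kcng4 (28.6 ± 6.84) and the strong inward rectifier Kcnj12 (20.01 ± 1.85). The first 3 of these were not apart from each other by more than their spread. These 5 members made up 67.5% of the summed level of all members (232 CPM per kilobase), and voltage-gated pores and inward rectifiers together dominated, with 46.6% and 32.0%. In WT diaphragm the summed level was 122, and the leading members were Kcng4 (16.1 ± 4.40, n = 4), Kcna7 (14.5 ± 3.64), the inward rectifier Kcnj2 (13.3 ± 2.63) and Kcnj11 (11.9 ± 3.54). Neighbours in that order did not differ beyond their spread.

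In WT heart the leading members were Kcnk3, an acid-sensitive leak channel (47.5 ± 2.39 CPM per kilobase, n = 4), and Kcnip2, the calcium-binding partner of the channels of the transient outward current (46.4 ± 15.6). They were followed by Kcnj5 (31.7 ± 17.1) and Kcnj3 (29.1 ± 20.6), which together form the acetylcholine-activated channel of the atrium, and by Kcnj11 (18.7 ± 0.904). The wide spread of Kcnj5 and Kcnj3 came with 1 library: WT heart 4, which had the atrial marker sum of 30975 CPM, also had the highest level of both. In WT liver a single member stood out. Kcnk5, an alkaline-activated leak channel, was at 22.9 ± 3.03 (n = 3), ahead of the small-conductance calcium-activated channel Kcnn2 (5.67 ± 1.01), Kcnn1 (1.44 ± 0.182) and Kcnj8 (1.17 ± 0.235). The 5 highest members made 85.6% of the liver sum, which was 38.4. Members above 1 CPM per kilobase numbered 18 in gastrocnemius, 19 in diaphragm, 23 in heart and 6 in liver, and 11, 3, 12 and 30 members respectively had no count in any WT library.

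**Figure D1:**
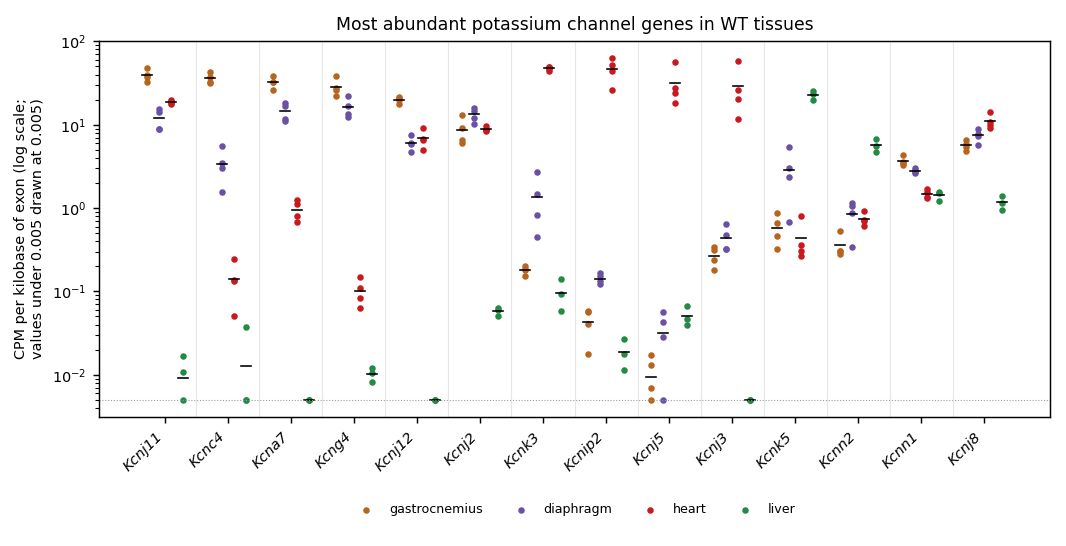
Level of the most abundant potassium channel genes in WT tissues, in CPM per kilobase of exon on a log axis, with 1 point per library and a bar at the mean of each tissue (n = 4, and 3 for liver). Kcnk5 and Kcnn2 lead in liver, Kcnk3, Kcnip2, Kcnj5 and Kcnj3 in heart, and Kcnj11, Kcnc4, Kcna7 and Kcng4 in gastrocnemius. Values under the dotted line were drawn on it.

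The tissues were compared in 1 edgeR fit of the 15 WT libraries, with p-values adjusted over all genes and called when under 0.05. Of 61 members tested, 27 were higher and 18 lower in heart than in gastrocnemius, against 32.6% and 28.7% of all genes tested. Among members with at least 1 CPM on average, the largest rises in heart were those of Kcnj5, Kcnip2 and Kcne1. Kcnip2 averaged 161 CPM in heart and 0.150 in gastrocnemius (log2 difference 10.07 ± 0.35, SE). Kcnj5 had 5 counts in all 4 gastrocnemius libraries together and Kcne1, a partner of the slow delayed rectifier, had 2. The heart-to-gastrocnemius ratio was 3498 for Kcnj5 (95% interval 1499 to 10775, counting error only). The largest falls were those of the fast voltage-gated pore Kcnc1 (log2 difference −9.67), Kcng4 (−8.16) and Kcnc4 (−8.01). Kcng4 thus averaged 109 CPM in gastrocnemius and 0.382 in heart.

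Between diaphragm and gastrocnemius, 16 members were higher and 18 lower in the diaphragm, against 30.6% and 23.8% of all genes. Among members of at least 1 CPM, the largest rises were those of the transient outward channel pores Kcnd3 (log2 difference 3.34) and Kcnd2 (2.70) and of Kcnk3 (2.91), which had 5.42 ± 3.96 CPM in diaphragm and 0.717 ± 0.0827 in gastrocnemius. In the genotype fit of the diaphragm, Kcnk3 was at 3.79, 6.78, 2.15 and 12.7 CPM in the 4 WT libraries, where 6 adipocyte markers summed to 752, 675, 279 and 1666 CPM (19.1 to 88.3 in WT gastrocnemius). The same libraries were lowest and highest in both, and the part of adipose tissue in this difference was not tested. Kcnf1, a silent subunit, had the largest fall of these members (19.1 CPM in gastrocnemius, 0.160 in diaphragm, log2 difference −6.77), followed by Kcnc4 (133 and 12.5 CPM, −3.41) and Kcnab1 (−1.81). Of the 4 diaphragm libraries whose hepatocyte markers summed to over 10000 CPM, 3 were WT. A fit without them holds 1 WT diaphragm library, so only an effect size is given for it. Kcnk5 was called higher in diaphragm with all libraries (log2 difference 2.31, edgeR adjusted p = 0.00178). Its log2 difference was 0.29 in the fit with 1 WT diaphragm library. Kcnn2 (1.26) and Kcnj16 (6.13) were also called higher in diaphragm. Kcnn2 had 323, 318, 94 and 314 counts in the WT diaphragm libraries and Kcnj16 had 15, 11, 2 and 14. Both were lowest in WT diaphragm 3, the library low in hepatocyte markers. The part of liver tissue in these calls was not tested. Between heart and diaphragm, 25 members were higher and 19 lower in heart, against 22.1% and 29.6% of all genes. The 19 include Kcnk5 (−2.73) and Kcnj16 (−3.42), to which the same limit applies. The largest differences were those of Kcne1 (2 counts in the 4 diaphragm libraries), Kcnj5 (9.85) and the silent subunit Kcng2 (8.77), all higher in heart, and of Kcnc1 (−8.30), Kcng4 (−7.33) and the large-conductance calcium-activated channel Kcnma1 (−5.50), all lower.

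Against the mean of the 3 muscles, liver was higher for 6 members and lower for 48, against 37.1% and 42.4% of all genes. Those that were higher included Kcnj16, Kcnj10 and Kcnab3, and among members of at least 1 CPM on average the largest rises were those of Kcnk5 (log2 difference 4.67 ± 0.37) and Kcnn2 (3.21 ± 0.23). The muscle mean includes the 3 WT diaphragm libraries high in hepatocyte markers. Kcnk5 and Kcnn2 averaged 9.82 and 6.40 CPM in WT diaphragm, 1.97 and 2.66 in gastrocnemius, and 1.47 and 5.53 in heart. Kcna7, Kcnj12 and Kcnj3 had no count in the 3 liver libraries. With 3 counts over the group as the floor, Kcna7 was at least 1844-fold lower in liver than in gastrocnemius, Kcnj12 at least 1453-fold lower than in gastrocnemius, and Kcnj3 at least 4071-fold lower than in heart.

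The genotypes were then compared within each tissue. Between Mtm1-/y and WT gastrocnemius, 19 of the 49 members tested passed an edgeR adjusted p of 0.05. Of these, 6 rose and 13 fell, which is 12.2% and 26.5% of the members tested, beside 14.1% of all genes that rose and 14.9% that fell. The median log2 fold change was 0.17 over the members tested and 0.02 over all genes, and 28 of the 49 estimates were above 0. With an absolute log2 fold change over 1 as a further threshold, 7 members passed, beside 6.63% of all genes. The libraries of the genotypes did not overlap for 18 of the 49 members, beside 30.7% of all genes. The 30 members that did not pass ranged from −1.27 (Kcnf1) to 0.98 (Kcnk5) on the log2 scale. Across the 4 tissues, 62 of the 91 members were tested between genotypes at least once and 16 in all 4. The other 29 had at most 126 counts each over the 30 libraries. In gastrocnemius, 5 tested members reached the count minimum in 1 genotype only (Kcns3, Kcnj10, Kcnh7, Kcnmb4 and Kcnk13), and none of them was among the 19. The same held for 4 tested members in diaphragm, 2 in heart and 3 in liver.

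**Figure D2:**
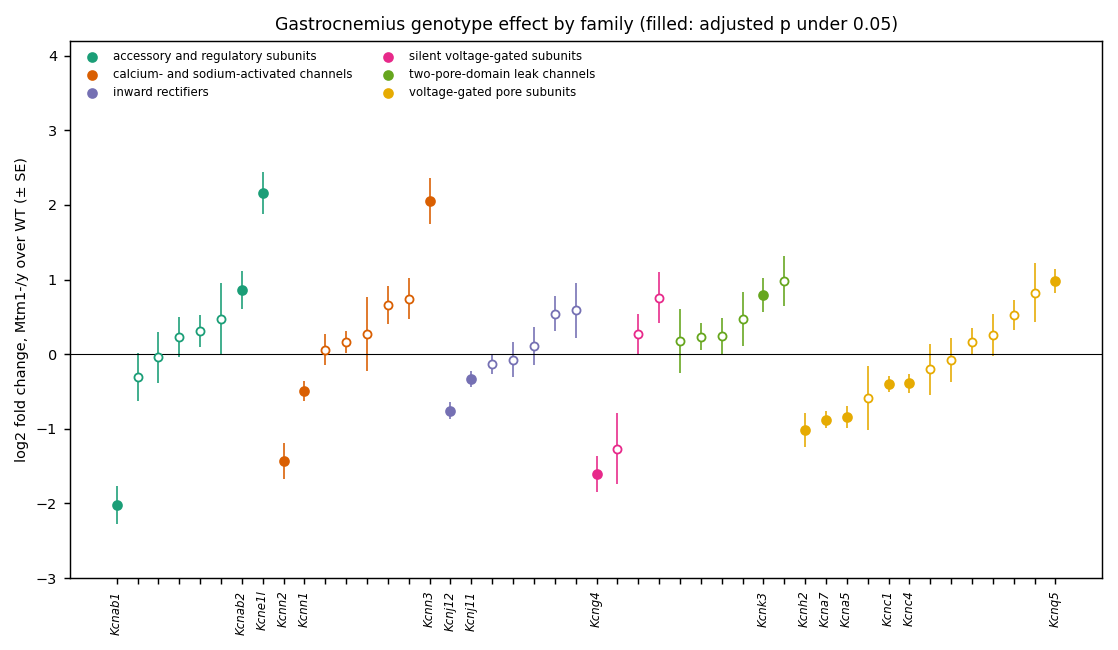
Log2 fold change (Mtm1-/y over WT, ± SE) of 46 of the 49 potassium channel genes tested in gastrocnemius, ordered within each family. Filled points passed an edgeR adjusted p of 0.05 and carry a name. Kcne1l and Kcnn3 lie highest at 2.16 and 2.05, and Kcnab1 and Kcng4 lowest at −2.02 and −1.60.

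Voltage-gated pore subunits held most of the falls. Of 30 such genes 16 were tested, 7 fell and 2 rose. Kcnh2, the ether-a-go-go-related pore best known for cardiac repolarization (mm10 chr5:24319589-24351604, − strand), was at 9.41, 9.66, 5.69 and 12.7 CPM in WT and 4.65, 4.72, 5.64 and 3.47 in Mtm1-/y. The highest Mtm1-/y library was just under the lowest WT library, and the mean fell 2.02-fold (−1.02 ± 0.23, adjusted p = 0.0093).

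Other pores fell by less than 1 on the log2 scale. Kcna7 fell from 64.3 ± 9.34 to 35.0 ± 3.19 CPM (−0.88 ± 0.11, adjusted p = 0.000559), and Kcna5, an ultrarapid delayed-rectifier pore, from 14.1 ± 1.09 to 7.89 ± 1.61 (−0.84 ± 0.14, adjusted p = 0.00216). Kcnc1 went from 95.4 to 72.4 CPM (−0.40, adjusted p = 0.0224) and Kcnc4 from 121 to 92.1 (−0.39, adjusted p = 0.0391), and each lost its call when single libraries were left out (3 and 5 of 8 times). Kcnq5, a pore of the M-current family, rose from 18 ± 2.16 to 35.6 ± 8.43 CPM (0.98 ± 0.16, adjusted p = 0.00208) with no overlap.

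Among the silent subunits, Kcng4 (chr8:119623854-119635680, − strand) was the only one of 4 tested members to pass. It was at 90.6, 77.3, 133 and 95.1 CPM in WT gastrocnemius and 21.3, 48.4, 29.0 and 31.8 in Mtm1-/y. No library overlapped and the mean fell 3.04-fold, from 99 ± 23.9 to 32.6 ± 11.4 CPM (−1.60 ± 0.24, adjusted p = 0.00132). As the abundant member that fell most, its promoter is given with that of Kcnn3, the pore-forming member that rose most. Kcnf1 was at 27.8, 13.1, 11.5 and 17.2 CPM in WT and 5.20, 7.96, 13.8 and 2.10 in Mtm1-/y. Its groups overlapped through 1 Mtm1-/y library, and the difference did not pass (−1.27 ± 0.47, adjusted p = 0.0706).

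Calcium- and sodium-activated channels were all 8 tested, and the 3 small-conductance channels moved in different directions. Kcnn3 (chr3:89520164-89675132, + strand) is a small-conductance channel whose level in muscle is known to depend on innervation. It was at 6.37, 4.44, 5.00 and 5.11 CPM in WT gastrocnemius and at 37.6, 19.3, 17.0 and 12.9 in Mtm1-/y. The lowest Mtm1-/y library was well above the highest WT library, and the mean rose 4.14-fold, from 5.23 ± 0.815 to 21.7 ± 10.9 CPM (2.05 ± 0.30, adjusted p = 0.0012). Kcnn2 was at 2.09, 2.06, 3.63 and 1.90 CPM in WT and 0.983, 0.756, 0.977 and 0.862 in Mtm1-/y. It fell 2.70-fold without overlap (−1.43 ± 0.25, adjusted p = 0.00236). Kcnn1 fell from 15.4 to 11 CPM (−0.49, adjusted p = 0.0204) and lost its call without WT gastrocnemius 4.

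The 250 bases before the annotated start of Kcnn3 (GRCm38.p6 chr3:89519914-89520163, + strand) and of Kcng4 (chr8:119635681-119635930, − strand) are given 5′ to 3′ from RefSeq. Capitals mark the E-box CAGCTG, one of the hexamers that muscle regulatory basic helix-loop-helix factors are known to bind.
Kcnn3: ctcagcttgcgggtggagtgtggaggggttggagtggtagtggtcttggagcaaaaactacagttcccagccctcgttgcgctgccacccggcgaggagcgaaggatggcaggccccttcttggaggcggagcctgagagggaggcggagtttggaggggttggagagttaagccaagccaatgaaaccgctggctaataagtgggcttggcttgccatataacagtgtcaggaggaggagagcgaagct
Kcng4: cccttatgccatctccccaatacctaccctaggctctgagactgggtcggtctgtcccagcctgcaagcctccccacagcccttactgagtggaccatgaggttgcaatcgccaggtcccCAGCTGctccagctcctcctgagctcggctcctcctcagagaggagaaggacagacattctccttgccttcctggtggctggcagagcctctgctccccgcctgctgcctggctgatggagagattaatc
The hexamers CAGCTG and CACCTG were searched on both strands, and they do not overlap each other. The Kcng4 window held 1 CAGCTG, which begins 130 bases before the start, and the Kcnn3 window held neither. Among 32851 promoter windows of the same length, 13% held CAGCTG and 17.2% held CACCTG. For 66 members that had an entry (91 windows, since a gene may have several starts), 22 windows held CAGCTG and 21 held CACCTG.

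Of 7 inward rectifiers tested, 2 fell and none rose. Kcnj12 fell from 50.0 ± 4.47 to 29.5 ± 4.72 CPM without overlap (−0.76 ± 0.11, adjusted p = 0.00128). Kcnj11 went from 131 to 104 CPM with overlapping libraries (−0.34, adjusted p = 0.0463), and the call was lost in 7 of 8 fits that left out 1 library. Of 6 leak channels tested, only Kcnk3 passed. It rose from 0.652 to 1.13 CPM (0.79, adjusted p = 0.0271), and lost its call in 5 of 8 such fits. Kcnk5 was at 1.79 CPM in WT and 3.55 in Mtm1-/y and missed the threshold (0.98 ± 0.33, edgeR adjusted p = 0.0516, DESeq2 adjusted p = 0.0207).

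Accessory subunits included the member with the largest change in each direction. Kcne1l, an X-linked single-span subunit (chrX:142304752-142306294, − strand), was at 3.28, 1.84, 1.41 and 3.39 CPM in WT gastrocnemius and 14.2, 9.41, 8.54 and 12.5 in Mtm1-/y. The groups were far apart and the mean rose 4.48-fold, from 2.48 ± 1.01 to 11.2 ± 2.63 CPM (2.16 ± 0.28, adjusted p = 0.000662). Kcnab1, a cytoplasmic beta subunit that joins Shaker-type pores (chr3:65109384-65378223, + strand), was at 6.35, 9.18, 8.03 and 7.07 CPM in WT and 1.03, 1.75, 2.15 and 2.64 in Mtm1-/y. It fell 4.05-fold, again without overlap (−2.02 ± 0.25, adjusted p = 0.000552). Its relative Kcnab2 went the other way, from 0.945 to 1.72 CPM (0.86, adjusted p = 0.0318), a call lost in 6 of 8 fits without 1 library. Exons of Kcnab2 overlap those of Gm16334 on the same strand, and reads in such overlaps were dropped. In all, 12 of the 19 members called kept their call whichever gastrocnemius library was left out.

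**Figure D3:**
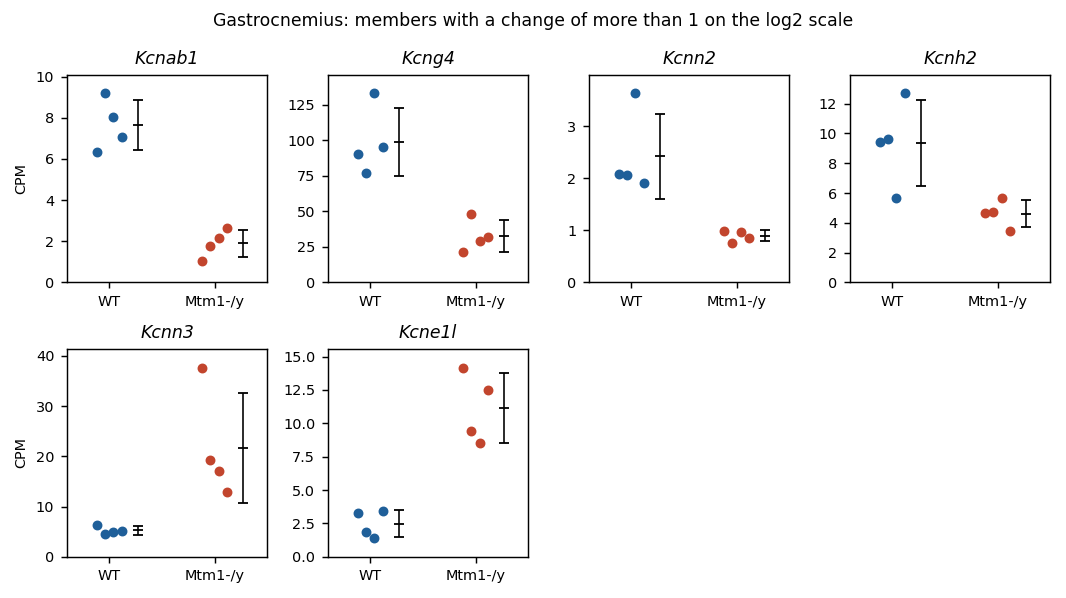
Level in CPM of 6 members that passed and changed by more than 1 on the log2 scale in gastrocnemius, with 1 point per library in replicate order and the mean ± SD beside them (n = 4 and 4). In every panel the WT and Mtm1-/y libraries do not overlap, with the smallest gap for Kcnh2 (5.69 against 5.64).

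Genes outside the Kcn symbols that work with these channels were also read in gastrocnemius. Beside these lists, 14.1% of all genes tested in this tissue rose and 14.9% fell. Of 9 tested partners of potassium channels, 1 rose and 4 fell. Abcc9, a sulfonylurea receptor that pairs with the pores of ATP-sensitive channels, fell from 357 to 247 CPM (−0.53, adjusted p = 0.000584). Its relative Abcc8 rose from 4.31 to 7.39 CPM (0.78). Of 15 genes of potassium and sodium transport, 6 rose and 2 fell. Atp1b4, a muscle protein related to the sodium pump beta subunits, rose from 16.9 to 42.4 CPM (1.33), and the pump regulator Fxyd5 from 8.05 to 13.9 (0.78). Of 14 tested other channels of muscle excitability, 1 rose and 6 fell, among them the muscle sodium channel Scn4a (620 to 416 CPM, −0.58) and the chloride channel Clcn1 (285 to 196 CPM, −0.54). All 12 genes of a denervation-responsive list rose, with a median log2 fold change of 1.81, among them Runx1 (3.73) and Ncam1 (1.77). In diaphragm, where edgeR called no gene of these lists, DESeq2 called 6 of the 12 higher, with 1 of 15 transport genes and 2 of 15 other channels. DESeq2 called 2.38% of all genes there.

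Markers of cell types moved in the same libraries. All 5 fast muscle markers fell, with summed levels of 101265 to 125316 CPM in WT and 53544 to 70536 in Mtm1-/y gastrocnemius. Of 4 general skeletal muscle markers 3 also fell (92526 to 113794 and 60400 to 66613 CPM). The median log2 fold change was −0.76 for the fast list and −0.67 for the general list. All 6 macrophage markers rose, with sums of 29.0 to 48.9 CPM in WT and 72.9 to 89.5 in Mtm1-/y. Of 6 adipocyte markers 5 rose (19.1 to 88.3 and 74.6 to 157 CPM), and 3 of 6 smooth muscle and pericyte markers fell (923 to 1029 and 635 to 774 CPM). These 3 and their sum include Abcc9, the gene already given above as a channel partner. Of 5 endothelial markers 2 fell, and of 5 fibroblast markers 2 rose. None of 7 Schwann cell markers passed. The part of these shifts in the changes of the members was not tested.

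In diaphragm, none of the 54 members tested passed with edgeR (0.0119% of all genes did). Unadjusted p-values under 0.05 were found for 10 members, 4 higher and 6 lower, beside 6.58% of all genes that were higher and 4.17% that were lower at that p. DESeq2 called 2, beside 2.38% of all genes. Libraries of the genotypes did not overlap for 8 of the 54 (9.97% of all genes). The members tested ranged from −1.33 (Kcnk5) to 1.43 (Kcnf1) on the log2 scale. The residual spread of this tissue was the widest, with a biological coefficient of variation of 0.394 against 0.171 in gastrocnemius.

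The 2 members DESeq2 called were Kcna5 and Kcne4, a regulatory subunit that inhibits several voltage-gated pores. Kcna5 was at 21.7, 20.8, 30.4 and 23.4 CPM in WT diaphragm and 13.1, 16.3 and 12.8 in Mtm1-/y diaphragm. All Mtm1-/y libraries were below all WT libraries (−0.78 ± 0.17, edgeR adjusted p = 0.274, DESeq2 adjusted p = 0.0064). Kcne4 was at 3.79, 2.85, 4.37 and 3.91 CPM in WT and 10.3, 4.52 and 8.61 in Mtm1-/y. Here too the groups did not overlap, by a small gap (1.07 ± 0.29, edgeR adjusted p = 0.293, DESeq2 adjusted p = 0.0351). The DESeq2 count was 0 without WT diaphragm 4 or without Mtm1-/y diaphragm 1, and 8 without Mtm1-/y diaphragm 2, the library with the highest hepatocyte markers. Without the 4 libraries high in those markers, 1 WT and 2 Mtm1-/y libraries were left. The log2 fold changes were then −1.23 for Kcna5 and 1.11 for Kcne4.

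Among the other members with the smallest p, Kcnh2 was at 5.43, 5.48, 6.79 and 4.86 CPM in WT and 3.67, 3.97 and 3.41 in Mtm1-/y diaphragm. It did not overlap between the groups (−0.62 ± 0.16, edgeR adjusted p = 0.290). Kcnk2, a mechanosensitive leak channel, was at 3.64, 3.22, 4.67 and 3.67 CPM in WT and 6.11, 4.18 and 7.25 in Mtm1-/y, which overlapped (0.62 ± 0.22, adjusted p = 0.398). Kcnn3 was at 13.1, 12.9, 21.7 and 11.1 CPM in WT and 27.7, 14.5 and 33.0 in Mtm1-/y, also with overlap (0.77 ± 0.33, adjusted p = 0.473). The members with the highest WT liver levels, Kcnk5 and Kcnn2, varied with the hepatocyte markers in this tissue. Kcnk5 was at 21.6, 9.46, 2.81 and 12.0 CPM in WT and 3.93, 7.94 and 1.92 in Mtm1-/y, lowest in the libraries with the lowest hepatocyte sum of each genotype. Its log2 fold change of −1.33 was 0.06 without the 4 libraries high in these markers, a fit in which the WT group has no replicate. Kcnn2 was also lowest in the WT library with the lowest hepatocyte sum, with 9.96, 7.54, 3.07 and 9.37 CPM. In Mtm1-/y diaphragm 2 it was at 11 CPM, against 1.53 and 1.84 in the other Mtm1-/y libraries.

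In heart, none of the 50 members tested passed with edgeR, beside 0.00656% of all genes, while 12 had an unadjusted p under 0.05. Of these, 3 were higher and 9 lower, beside 3.05% and 5.83% of all genes. DESeq2 called 1 member, beside 0.461% of all genes, and 5 members had libraries that did not overlap, beside 4.26% of all genes. The member called was Kcnj2, the main pore of the cardiac inward rectifier current. It was at 56.7, 54.7, 62.8 and 55.8 CPM in WT heart and 76.5, 94.2, 71.7 and 79.8 in Mtm1-/y heart. Each Mtm1-/y library was above each WT library, with means of 57.5 ± 3.64 and 80.6 ± 9.67 CPM (0.49 ± 0.09, edgeR adjusted p = 0.353, DESeq2 adjusted p = 0.0039). The DESeq2 count was 0 without Mtm1-/y heart 4 and up to 5 without WT heart 2.

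Kcnip3, a calcium-binding relative of Kcnip2, was at 3.53, 3.27, 4.40 and 4.94 CPM in WT heart and 2.42, 2.89, 2.46 and 2.67 in Mtm1-/y, without overlap (−0.63 ± 0.17, edgeR adjusted p = 0.546). Kcnc2, a fast voltage-gated pore, was at 2.14, 0.951, 1.67 and 4.37 CPM in WT and 0.832, 0.593, 0.887 and 0.339 in Mtm1-/y, with the same order (−1.78 ± 0.49, edgeR adjusted p = 0.546). Kcne1 was at 30.0, 31.4, 27.2 and 11.1 CPM in WT and 19.6, 9.89, 10.1 and 10.5 in Mtm1-/y. Here WT heart 4 was among the low libraries and Mtm1-/y heart 1 was above the other 3 (−0.99 ± 0.34, edgeR adjusted p = 0.546). Kcnj3 followed the atrial markers, at 127, 72.9, 161 and 369 CPM in WT and 70.3, 189, 72.5 and 71.4 in Mtm1-/y, with the highest values in WT heart 4 and Mtm1-/y heart 2. Kcnj5 had the same highest libraries, at 319 and 174 CPM. Adipocyte markers were also lower in Mtm1-/y heart, where they summed to 5.48 to 14.2 CPM against 34.9 to 132 in WT. The part of atrial and adipose tissue in these values was not tested.

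In liver 19 members were tested and none passed, with edgeR (0% of all genes) or with DESeq2 (0.136% of all genes). A single member had an unadjusted edgeR p under 0.05, beside 4.24% of all genes. This was Kcnj16, an inward rectifier that needs a partner pore, at 1.52, 1.94 and 1.13 CPM in WT liver and 1.15, 0.542, 0.649 and 0.782 in Mtm1-/y, which overlapped (−0.97 ± 0.33, edgeR adjusted p = 0.969). Kcnk5, the most abundant member here, was at 72.2, 64.8 and 54.7 CPM in WT and 48.0, 46.5, 17.3 and 48.8 in Mtm1-/y. All Mtm1-/y libraries were below all WT libraries, as for 6.09% of all genes, but 1 of them was far below the others (−0.67 ± 0.32, edgeR adjusted p = 0.969). Kcnj10 and Kcnk13 had the next smallest p, with log2 fold changes of −0.46 and −0.34. Kcnj10 had 54, 51 and 48 counts in WT liver and 47, 5, 43 and 57 in Mtm1-/y. Only Mtm1-/y liver 2 was far below the others. Kcnk13 was near the count minimum, with 14, 16 and 11 counts in WT liver and 8, 4, 15 and 17 in Mtm1-/y. The median SE of a member's log2 fold change was 0.42 in liver, against 0.25 in gastrocnemius, 0.29 in diaphragm and 0.24 in heart, so small differences in liver were not detectable at this depth and number of mice.

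**Figure D4:**
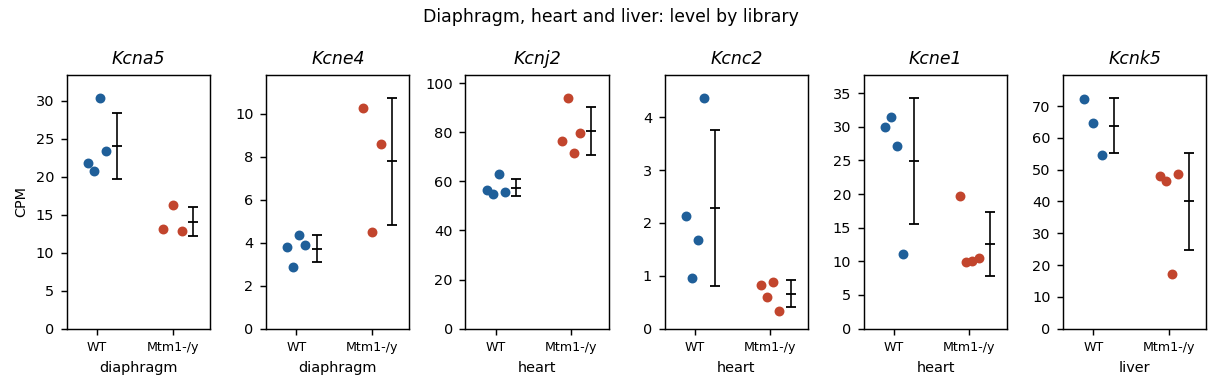
Level in CPM of Kcna5 and Kcne4 in diaphragm, Kcnj2, Kcnc2 and Kcne1 in heart, and Kcnk5 in liver. They are a selection from the 4 members with the smallest p in each tissue. Each point is 1 library, with the mean ± SD beside them (n = 4 and 3, 4 and 4, 3 and 4). Kcnj2 in heart runs from 54.7 to 62.8 in WT and from 71.7 to 94.2 in Mtm1-/y, and Kcnk5 in liver has 1 Mtm1-/y library at 17.3.

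Whether the genotype effect itself differed between muscles was tested as the difference of the log2 fold changes. Between heart and gastrocnemius it differed for 12 of 60 members (6 in each direction), beside 19.8% of all genes. Kcnn2 had the smallest adjusted p: its log2 fold change was 0.10 in heart and −1.43 in gastrocnemius, a difference of 1.54 ± 0.29 (edgeR adjusted p = 0.0027). For Kcnab1 the values were 0.01 and −2.02 (difference 2.05 ± 0.40, adjusted p = 0.0032). For Kcng4 they were 0.62 ± 0.38 in heart, on 9 to 27 counts per library, and −1.60 in gastrocnemius (difference 2.25 ± 0.51). Kcnn3 had the reverse sign, 0.34 in heart and 2.05 in gastrocnemius (−1.70 ± 0.40, adjusted p = 0.0092).

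The sodium-activated channel Kcnt2 and the intermediate-conductance channel Kcnn4 had estimates of opposite sign, −0.82 and −0.73 in heart and 0.66 and 0.74 in gastrocnemius. Neither had passed in 1 tissue alone, and the differences were −1.47 and −1.45. In heart, Kcnt2 was highest in WT heart 4 (652 counts) and Mtm1-/y heart 2 (229 counts), the libraries with the highest atrial sum of each genotype. The part of atrial tissue in its difference was not tested. Kcnn4 had only 4 to 23 counts per heart library. Kcnk3, Kcnk5, Kcna5 and Kcne1 were also called. In heart, Kcnk5 was highest of each genotype in WT heart 4 and Mtm1-/y heart 2 (103 and 44 counts). Kcna5 was lowest of each genotype in the same libraries (447 and 680 counts). The part of atrial tissue in these differences was likewise not tested. The call for Kcne1 rested on Mtm1-/y gastrocnemius 3, where it had 74 counts against at most 3 in the other gastrocnemius libraries, and it was lost without that library. The number of members called ran from 7 (without WT gastrocnemius 2 or without Mtm1-/y heart 4) to 16 (without WT heart 2). Kcnab1, Kcng4, Kcnn2, Kcnn3 and Kcnt2 stayed called whichever single library was left out.

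Between diaphragm and gastrocnemius no member of 57 passed with edgeR (0.28% of all genes did). Unadjusted p-values under 0.05 were found for 14 members, 7 in each direction, beside 12.8% of all genes, and DESeq2 called 3, beside 2.14%. The closest was Kcnab1, with a difference of 1.76 ± 0.35 (edgeR adjusted p = 0.0618). Kcnc4 was at 6.57, 23.6, 15.3 and 13.2 CPM in WT diaphragm and 35.7, 17.4 and 65.4 in Mtm1-/y, higher on average, while it fell in gastrocnemius (difference 1.81, edgeR adjusted p = 0.209). Between heart and diaphragm none of 61 passed with edgeR (0.00573% of all genes did), 12 had an unadjusted p under 0.05, beside 10.6% of all genes, and DESeq2 called Kcnc4, beside 1.24% of all genes. Kcnc4 was too low for a genotype test within heart, with 7 to 29 counts per WT and 3 to 10 per Mtm1-/y heart library.

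**Figure D5:**
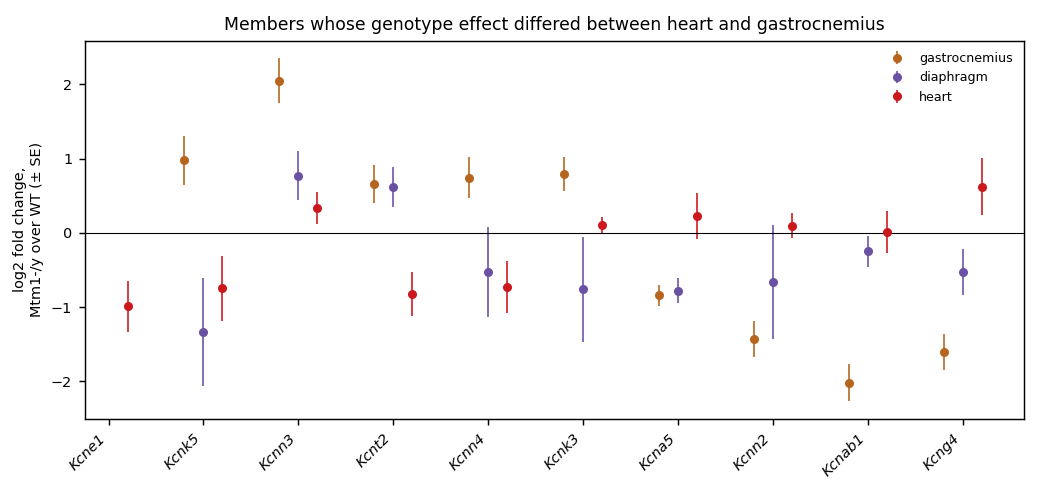
Log2 fold change (Mtm1-/y over WT, ± SE) in gastrocnemius, diaphragm and heart for 10 members whose genotype effect differed between heart and gastrocnemius. Kcnab1 is at −2.02 in gastrocnemius and 0.01 in heart, and the bars of the diaphragm are wider for most members. Kcne1 was tested in heart only.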

How the data were processed

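Per the labels and the study's methods, polyA RNA of each tissue was sequenced as stranded single-end reads. The authors trimmed reads with cutadapt 1.10, mapped to mm10 by STAR 2.5.3a, and used HTSeq 0.6.1p1 to count unambiguous unique reads per Ensembl gene. The strand setting of the counting is not given in the sources used here, and 26 members overlap exons on the other strand. The deposited raw counts of 30 libraries were used, with symbols matched for all 36103 identifiers.

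Counts were scaled by TMM, filtered with filterByExpr (count minimum 10) and tested with edgeR 4.0.16 (quasi-likelihood, R 4.3.3, Benjamini-Hochberg over all genes, adjusted p threshold 0.05). Genotypes were compared within each tissue, and WT tissues in 1 fit. CPM for genotypes use factors of 1 tissue, and CPM between tissues use factors of all WT libraries. DESeq2 1.42.0 and the settings of the closing section were alternatives. The tests were checked on simulated data.

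Named are members that passed (the 4 with the smallest p where none did, and those past both DESeq2 thresholds), the 5 most abundant in each WT tissue, the 3 largest differences each way between WT tissues among members of at least 1 CPM, up to 8 members whose genotype effect differed, and up to 4 genes of each other list. Others named (Kcna5 in diaphragm by DESeq2 alone, Kcnj2 in heart, members that vary with cell type markers or lie just outside a threshold) were chosen after their values were seen. Some genes that the rule names are not reported here. The members and lists were chosen with earlier results of these data known. Same-numbered WT and Mtm1-/y libraries of a tissue did not deviate together in all pairs, and no pair of libraries agreed within sampling noise.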

Additional observations from a re-analysis of the deposited data

Results flagged for a closer look

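In groups of 4 libraries, a library was looked at again when its gap to the nearest other library took up more of the group's range than Dixon's 95% critical value. This held for 8 of 74 groups of the members whose level in a tissue is described above. Chance gives about 1 in 20 for independent groups. These groups share libraries, so the count cannot show an excess over chance. Kcna7 was at 39.8 CPM in Mtm1-/y gastrocnemius 1 and at 33.2 to 33.6 in the others. Kcnn2 was at 3.63 CPM in WT gastrocnemius 3 and at 1.90 to 2.09 in the others, and Kcnc4 was at 73.1 CPM in Mtm1-/y gastrocnemius 2 and at 96.1 to 101 in the others. Kcne1 was at 19.6 CPM in Mtm1-/y heart 1 and at 9.89 to 10.5 in the others. Mtm1-/y heart 2 was the high library for Kcnj3, at 189 CPM against 70.3 to 72.5, and for Kcnj5, at 174 CPM against 92.9 to 98.4. In liver, Kcnn2 was at 50.8 CPM in Mtm1-/y liver 2 and at 28.0 to 28.9 in the others, and Kcnk5 was at 17.3 CPM in Mtm1-/y liver 3 and at 46.5 to 48.8 in the others.

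The genotype effect of the members below differed between heart and gastrocnemius by a test of the difference itself (heart minus gastrocnemius, log2 scale). The effect in heart was the higher for Kcng4 (2.25), Kcnab1 (2.05), Kcnn2 (1.54) and Kcna5 (1.09). It was the lower for Kcne1 (−5.79), Kcnk5 (−1.71), Kcnn3 (−1.70), Kcnt2 (−1.47), Kcnn4 (−1.45) and Kcnk3 (−0.66). Leaving out 1 library, which gives 16 fits, lost the call in 12 for Kcna5, 11 each for Kcnk5 and Kcnn4, 10 for Kcne1 and 8 for Kcnk3, and in none for the other 5. The value of Kcne1 rests on Mtm1-/y gastrocnemius 3, the library with 74 counts.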

How the results depend on the processing

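No called direction was reversed under any alternative. In gastrocnemius, 2 members rose and 5 fell with an absolute log2 fold change over 1 as a further threshold, DESeq2 called 20 members (the same 19 and Kcnk5), and leaving out 1 library gave 4 to 8 that rose and 10 to 13 that fell. With the replicate number as a replicate block, 17 members passed in gastrocnemius (Kcnc4 and Kcnk3 were lost) and 9 differed between heart and gastrocnemius. The numbers do not pair the mice, so this is no paired design. With edgeR, leaving out 1 library gave 0 to 1 members in diaphragm (1, Kcne4, without Mtm1-/y diaphragm 2) and DESeq2 gave 2 in diaphragm and 1 in heart. For the difference between heart and gastrocnemius, the fit of all 30 libraries gave 6 members, DESeq2 gave 15, and leaving out 1 library gave 7 to 16. Between diaphragm and gastrocnemius DESeq2 gave 3 and leaving out 1 library 0 to 2 (2 without WT diaphragm 3), and between heart and diaphragm DESeq2 gave 1 and leaving out 1 library 0 to 1 (1, Kcnn2, without Mtm1-/y diaphragm 2). Leaving out the 4 diaphragm libraries high in hepatocyte markers was a choice made after seeing the data, as was leaving out libraries with DESeq2. Without those 4 libraries 1 WT diaphragm library is left, so only effect sizes are given for these fits. The cause of these shifts was not tested. Over single named members and settings, 214 gastrocnemius values kept their side of the threshold, 43 lost it and 3 gained it.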
